A study of Mus musculus with 5 samples.

Results

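The genes described here encode the junctional adhesion molecules, Jam2, Jam3 and F11r, and 5 proteins of epithelial cell junctions, Cdh1, Epcam, Tjp1, Ocln and Cldn6. All 8 genes were measured, out of 19938 genes on the arrays, and each was represented by a single probe set. They were chosen by name, with earlier results of these data known, in which Jam2 had been among the genes with the largest decrease. Their levels and differences are therefore given as a description, with no test.

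RNA was measured on 5 microarrays of mouse embryonic stem (ES) cells carrying a tetO-Satb1 transgene, which doxycycline (DOX) switches on. The Satb1 product is a nuclear DNA-binding protein with a preference for AT-rich stretches. Induced cells received DOX for 24 h and filled 3 arrays, labelled Satb1 overexpression. Uninduced cells, with the same transgene and no DOX, filled 2 arrays, labelled control. All cells were grown in serum and LIF, and RNA was taken 48 h after passaging. The treatment protocol places the cells on irradiated feeders, most of which were to be removed by settling, whereas the design text speaks of LIF only. The series title calls the controls WT, although their sample titles carry the transgene name. The labels give no clone or line. They leave unsaid if replicate arrays stem from separate cultures, so the spread between arrays may be technical. No array held DOX-treated cells without the transgene, so the effect of DOX itself and that of Satb1 cannot be told apart.

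Junctions hold neighbouring epithelial cells together and close the space between them. Adherens junctions are built on E-cadherin and its catenins, and tight junctions on claudins, occludin and the junctional adhesion molecules, whose tails bind PDZ scaffold proteins such as ZO-1. ES cells grow as compact colonies that depend on E-cadherin, and they share EpCAM and several claudins with epithelia.

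The 5 arrays had median log2 levels of 5.05 to 5.07, and Pearson's r between arrays across genes was 0.9972 to 0.9979, where genes are not independent replicates. Of 9 genes that define ES cells, such as Pou5f1 and Sox2, all 9 lay above the median level over genes of 5.06. Satb1 itself averaged 8.69 ± 0.09 (SD, n = 3) in induced cells and 5.14 ± 0.28 (SD, n = 2) in uninduced cells, 11.7-fold higher, with an adjusted p of 0.229 in limma. Many deposited values were exactly equal between arrays, and 15.1% of genes had the same value on all 5 arrays, so that spreads within groups and standard errors can be too small. With 5 arrays, precision is limited throughout. All levels are log2 values, and levels of different genes come from different probes and were not compared with each other.

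Among the 8 genes, Jam2 was 1.73-fold lower in induced cells, and the other 7 differed by less than 0.08 on the log2 scale in either direction. Of the 8, 4 had a lower mean in induced cells, 3 a higher mean and 1 the same value throughout. Their median log2 change was -0.00044, against a median of 0 over all 19938 genes. All induced arrays lay below both uninduced arrays in 1 of the 8 genes, Jam2, and above them in 0. Over all genes these shares were 3.08% and 1.65%. A decrease of 1.5-fold or more was found in 6 genes in all (0.0301%), of which Jam2 was 1, and nothing is read from these shares because the choice of genes used the same comparison.

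**Figure D1:**
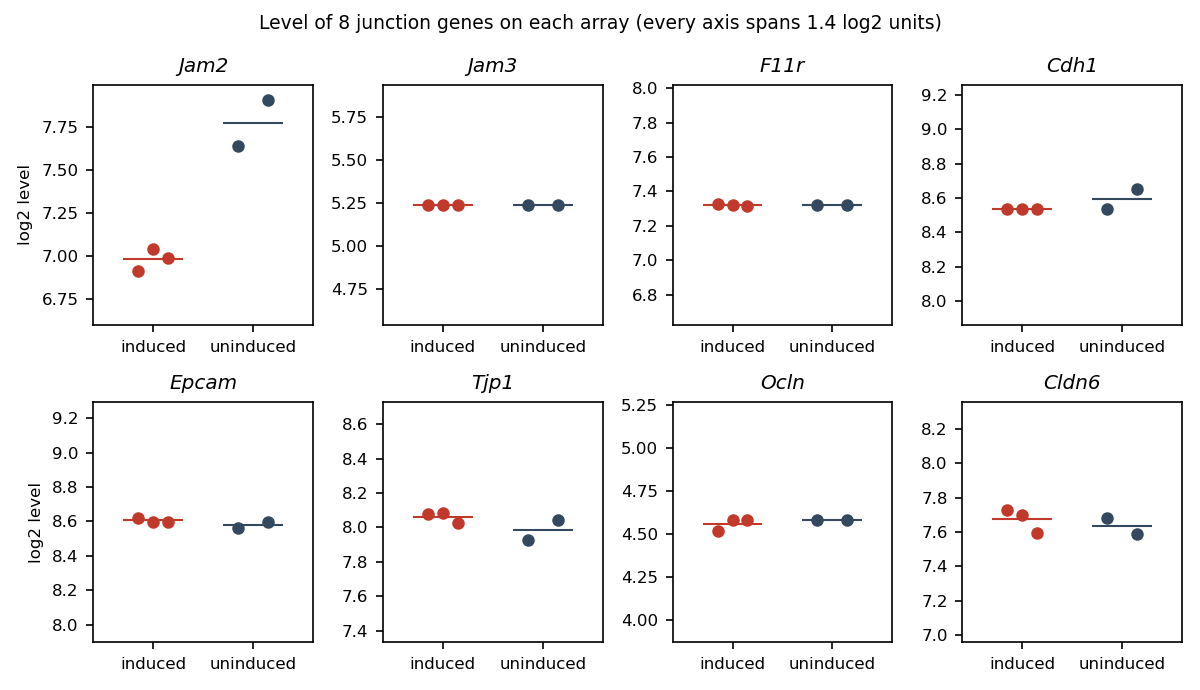
Log2 level of each of the 8 junction genes on the 3 induced arrays (red points) and the 2 uninduced arrays (dark points), with horizontal lines at the group means and every vertical axis 1.4 units high. The Jam2 points lie between 6.91 and 7.04 on the induced arrays and at 7.64 and 7.91 on the uninduced arrays, and in the other 7 panels the groups overlap or touch.

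The junctional adhesion molecules are immunoglobulin-type surface proteins that bind each other between cells. Jam2 encodes JAM-B, which pairs with JAM-C, the product of Jam3, and is best known from endothelium and from the testis. Jam2 had log2 levels of 6.91, 7.04 and 6.99 on induced arrays, against 7.64 and 7.91 on uninduced arrays. The groups did not overlap, and the lowest uninduced value lay 0.60 above the highest induced value. That gap was larger than the range within either group, which was 0.13 among induced and 0.27 among uninduced arrays. The group means were 6.98 ± 0.07 (SD, n = 3) in induced and 7.78 ± 0.19 (SD, n = 2) in uninduced cells. The log2 change was -0.79 (standard error 0.10). Taken array by array, induced arrays 1, 2 and 3 lay -0.86, -0.73 and -0.79 from the uninduced mean. The change was the fourth lowest of all 19938 genes, and the third lowest of the 9969 genes above the median level. The decrease was -0.93 without uninduced array 1 and -0.66 without uninduced array 2.

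**Figure D2:**
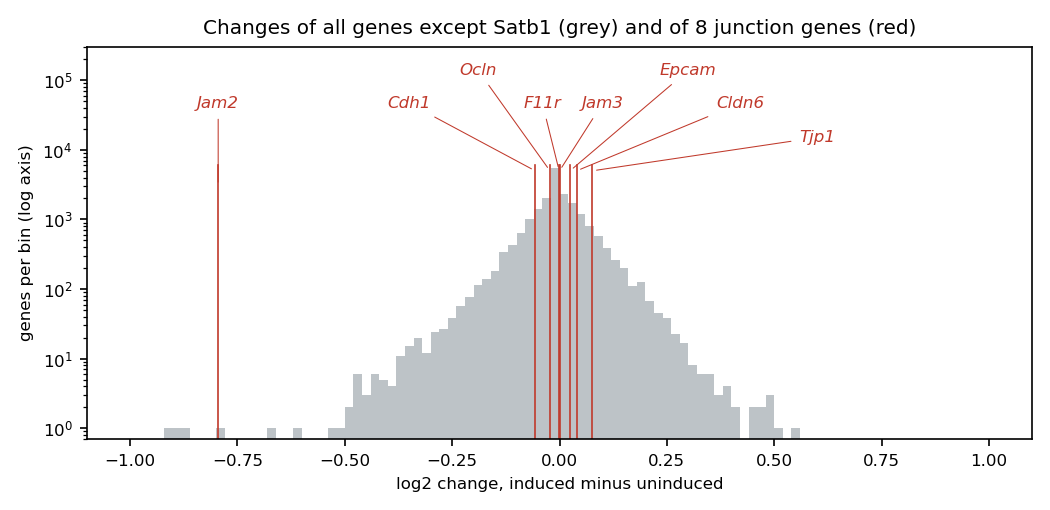
Number of genes per bin of log2 change, induced minus uninduced (grey; bins of equal width, log vertical axis, Satb1 left out because its change of 3.55 lies outside the axis), with the 8 junction genes as red lines. Jam2 at -0.79 stands among the few genes at the far left, and the other 7 genes lie between -0.057 and 0.077, within the bulk of all genes.

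Jam3 encodes JAM-C, the binding partner of JAM-B. Its probe set had the same value, 5.24, on all 5 arrays, so no difference between groups was seen and no spread can be given. Itgb3, another gene, also had 5.24111 on all 5 arrays, as Jam3 did. The constant value therefore cannot show that the Jam3 level was unchanged. F11r encodes JAM-A, the most widely expressed epithelial member of the family. F11r was at 7.33, 7.32 and 7.31 on induced arrays and at 7.32 on both uninduced arrays. These values coincide to within 0.02, and the log2 change was -0.00088 with a standard error of 0.0057. Thus the JAM-B gene was lower in induced cells, while the deposited values for Jam3 and F11r were almost the same on every array. The differences between the 3 changes were not tested.

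In bulk RNA, fewer cells of a type that expresses Jam2 and less Jam2 RNA per cell cannot be told apart. Jam2 is also a gene of endothelium, and 10 endothelial markers, such as Pecam1 and Tek, had mean levels of 4.86, 4.82 and 4.80 on induced arrays and 4.83 and 4.82 on uninduced arrays. These group ranges overlap, and the list had a median change of -0.0062, with 4 genes higher, 5 lower and 1 equal in mean. For 17 measured markers of feeder fibroblasts, such as Col1a1 and Vim, the mean level was 5.48, 5.51 and 5.52 on induced arrays and 5.46 and 5.47 on uninduced arrays. The fibroblast mean was thus slightly higher on every induced array, with 12 markers higher, 4 lower and 1 equal, and a median change of 0.024. Fitted with that mean as a covariate, the Jam2 change was -0.93 (standard error 0.17, against 0.10 without it). Because that mean was higher on every induced array, this fit cannot tell feeder content and induction apart, and nothing is read from it. Trophectoderm (9 genes) and primitive endoderm (8 genes) markers each had a median change of 0. The 9 genes that define ES cells had 2 higher, 6 lower and 1 equal in mean and a median change of -0.0047. Their changes ran from -0.21 for Tdgf1 to 0.060 for Dppa5a. Log2 array values have no true zero, so absence of a marker could not be read from them. Whether ES cells themselves express some of the endothelial or fibroblast markers was not tested. The part of other cell types in the Jam2 difference was not tested.

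The 5 genes whose values over the 5 arrays were nearest to those of Jam2, each taken as the deviation from the uninduced mean, were Sall1, Egln3, Bnip3, Ddit4 and P4ha1. They were ranked among 9968 genes above the median level by Euclidean distance, which ran from 0.31 for Sall1 to 0.57 for P4ha1. Sall1, a zinc finger gene, was at 7.15, 7.08 and 7.09 on induced arrays and 7.74 and 7.79 on uninduced arrays. Within each group its values lay closer together than those of Jam2. Egln3, which encodes an oxygen-sensing prolyl hydroxylase, had 6.17, 5.80 and 6.01 on induced arrays against 6.92 and 6.87 on uninduced arrays. Bnip3, a mitophagy receptor gene, had 7.24, 6.82 and 7.18 on induced arrays against 8.06 and 7.86 on uninduced arrays. In Egln3 and Bnip3 induced array 2 was the lowest, whereas Jam2 was lowest on induced array 1. Ddit4, an mTORC1 inhibitor gene, lay between 5.87 and 6.08 on induced arrays against 6.46 and 6.50 on uninduced arrays. P4ha1, a collagen prolyl hydroxylase gene, had 6.17, 6.28 and 6.22 on induced arrays against 6.68 and 6.73 on uninduced arrays. The groups did not overlap in any of these 5 genes, which the ranking selects for. None of the 5 passed over all genes (limma adjusted p from 0.230 to 0.770). In that test, 2 genes were higher (0.0100%) and 1 was lower (0.00502%) among 19938.

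**Figure D3:**
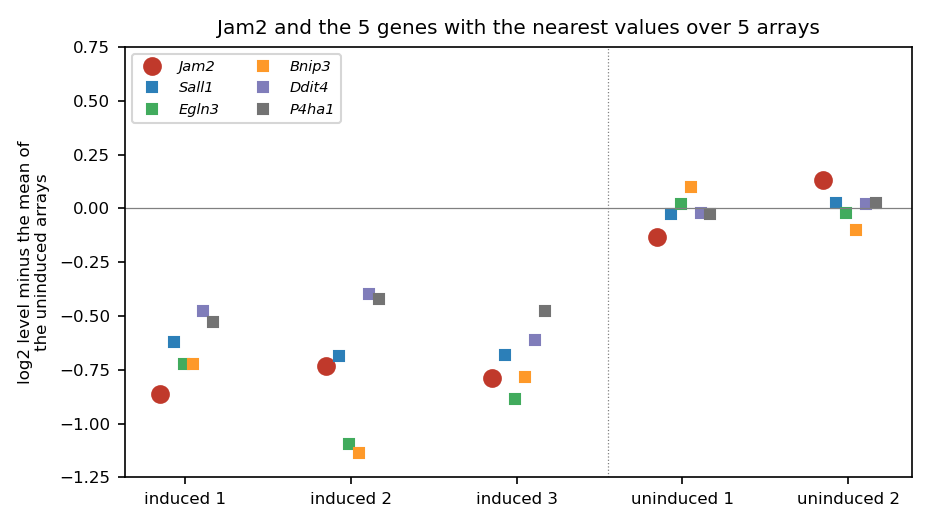
Log2 level minus the mean of the uninduced arrays for Jam2 (red circles) and for the 5 genes with the nearest values (coloured squares), on each of the 3 induced and 2 uninduced arrays. All 6 genes lie below zero on every induced array, and Jam2 has the widest gap between its uninduced points, at 7.64 and 7.91 before centring.

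Cdh1 encodes E-cadherin, the calcium-dependent adhesion protein of adherens junctions. It was at 8.54 on all 3 induced arrays, against 8.54 and 8.65 on uninduced arrays. Only uninduced array 2 stood apart, and 4 of the 5 values were identical. The log2 change was -0.057 with a standard error of 0.039, and it was 0 without uninduced array 2 and -0.11 without uninduced array 1. Epcam encodes a homophilic adhesion protein of epithelia and ES cells that is cut by membrane proteases. Epcam was at 8.62, 8.60 and 8.60 on induced arrays and at 8.56 and 8.60 on uninduced arrays. Here 3 arrays shared 1 value, the groups touched, and the change was 0.024 with a standard error of 0.015, or 0.0070 without uninduced array 1 and 0.042 without uninduced array 2.

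Tjp1 encodes ZO-1, the scaffold protein that links tight junction proteins, junctional adhesion molecules among them, to actin. It had log2 levels of 8.08, 8.08 and 8.02 on induced arrays, against 7.93 and 8.04 on uninduced arrays. Uninduced array 1 was the lowest of the 5 and the groups overlapped. The means were 8.06 ± 0.03 (SD, n = 3) in induced and 7.99 ± 0.08 (SD, n = 2) in uninduced cells. The difference of 0.077, with a standard error of 0.045, was near the SD within the uninduced group, and it was 0.021 without uninduced array 1 and 0.13 without uninduced array 2. This was the largest increase among the 8 genes.

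Ocln encodes occludin, a tight junction protein that crosses the membrane several times. It was at 4.51, 4.58 and 4.58 on induced arrays and at 4.58 on both uninduced arrays, so that only induced array 1 differed. Its mean lay below the median level over genes, as it did for no other gene of the 8. The change was -0.022 with a standard error of 0.027, and 0 without induced array 1. Cldn6 encodes claudin-6, a claudin of early embryonic epithelia and pluripotent cells. Cldn6 was at 7.73, 7.70 and 7.60 on induced arrays and at 7.68 and 7.59 on uninduced arrays. The groups overlapped, and the change of 0.040, with a standard error of 0.057, was smaller than the SD of either group. It was 0.085 without uninduced array 1, -0.0055 without uninduced array 2, and 0.013, 0.029 and 0.078 without induced array 1, 2 or 3.

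**Figure D4:**
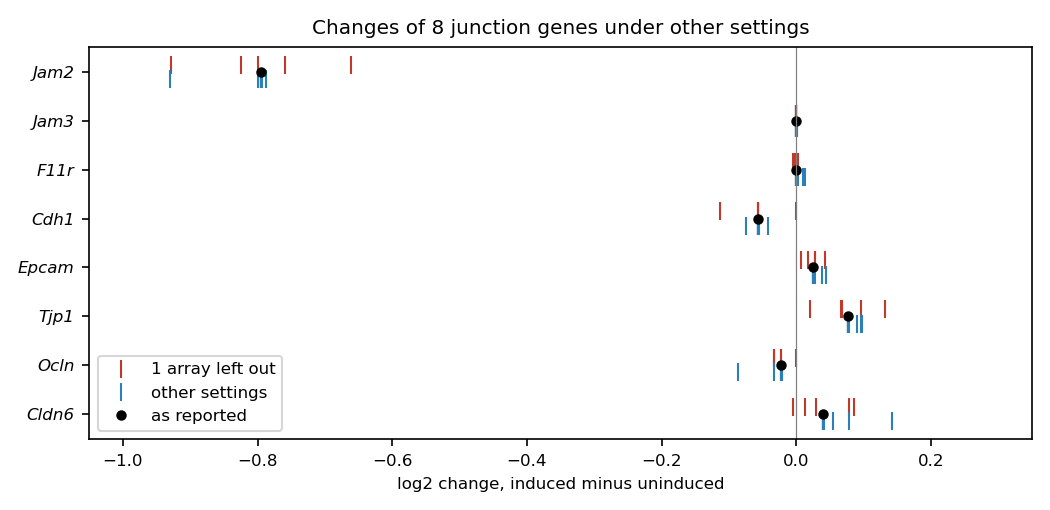
Log2 change of the 8 junction genes, induced minus uninduced, as reported (black points), with 1 array left out (red ticks) and under the other settings (blue ticks). Jam2 runs from -0.93 to -0.66, and the other 7 genes lie between -0.11 and 0.14 throughout.

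The wider junction machinery was read from 11 lists holding 153 further genes, of which 143 were measured. In limma over all genes, 0 of the 143 were called, against 0.0100% higher and 0.00502% lower over all genes. The same fit did not call Satb1, 11.7-fold higher (limma adjusted p = 0.229), so 0 calls cannot show unchanged levels. At an unadjusted p under 0.05 there were 1 higher and 1 lower, against 96 higher (0.481%) and 213 lower (1.07%) over all genes. With 1 uninduced array left out, the fit has a lone uninduced array that is assumed to vary like the induced ones, and it called 16 of these genes (11.2%) without uninduced array 1 and 20 (14.0%) without uninduced array 2. Over all genes, 9.93% were called in the first of these fits and 9.93% in the second. The count was 0 under the other 12 alternatives. The 143 genes had a median log2 change of 0, with 66 higher, 50 lower and 27 equal in mean. All induced arrays lay below both uninduced arrays in 4 of them (2.8%) and above in 6 (4.2%), against 3.08% and 1.65% of all genes. None of the 143 differed by 1.5-fold or more, and a decrease of that size was found in only 0.0301% of all genes. The genes named from each list are the 3 with the highest level, and the basis is given for any other.

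**Figure D5:**
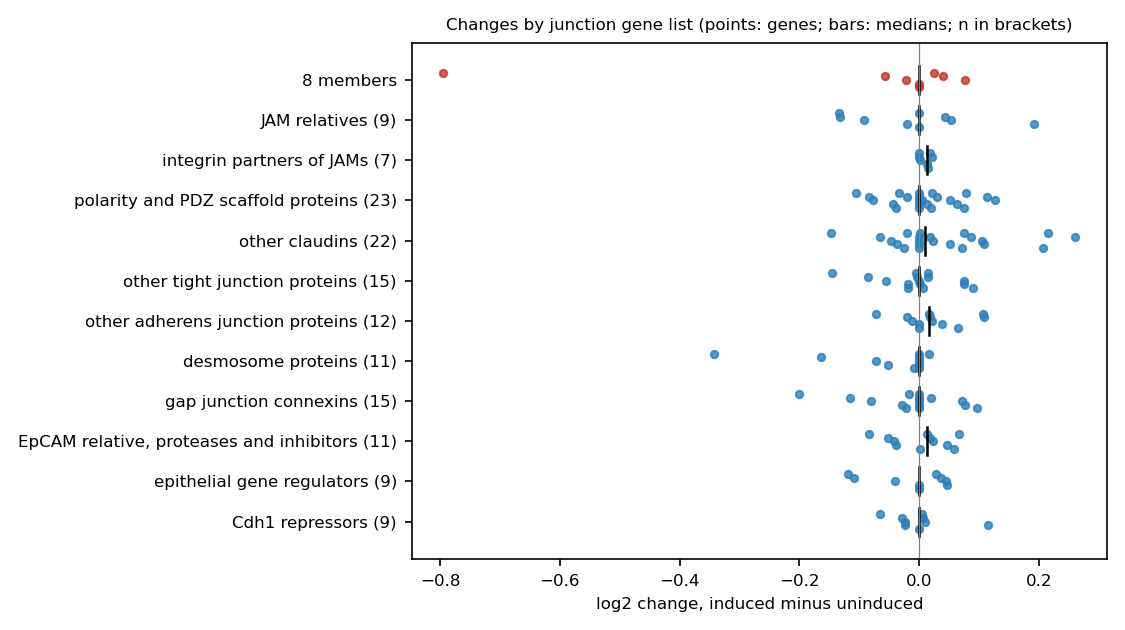
Log2 change, induced minus uninduced, of each of the 8 junction genes (red) and of each measured gene in the 11 lists (blue), with black bars at the medians and the number of measured genes in brackets. Medians lie between 0 and 0.017 for the 11 lists, and Jam2 at -0.79 lies farther out than any list gene, of which Pkp2 at -0.34 is the farthest.

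Relatives of the JAM family (9 of 9 measured) had a median change of 0, with 3 higher, 4 lower and 2 equal in mean. Gpa33 had the same value on all arrays, Cxadr, the coxsackievirus and adenovirus receptor gene, had a change of 0.054, and Clmp had -0.13. The integrin genes that encode JAM receptors (7 of 7) had a median of 0.013, and all lay between 0 and 0.021. Itgb1, the common beta chain gene, was at 8.13, 8.03 and 7.98 on induced arrays and at 8.03 and 8.02 on uninduced arrays. Its induced arrays spanned both uninduced values. Itgav and Itgb3, which encode an integrin pair, had changes of 0.0014 and 0.

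Among polarity and PDZ scaffold genes, 23 of 24 were measured, 11 had a higher mean, 8 a lower mean and 4 the same value, with a median of 0. Prkci, the atypical protein kinase C gene of the PAR complex, had a change of 0.013, Lin7c -0.084 and Dlg1 -0.034. Pard3, whose product binds JAM tails, had 6.26 on all 5 arrays, and it was named for that role. Other tight junction genes (15 of 16 measured) had 7 higher, 7 lower and 1 equal in mean and a median of 0. Ybx3, the gene of a ZO-1-binding transcription factor, had a change of -0.056, Sympk, the symplekin gene, 0.014 and Ildr1, a gene of junctions where 3 cells meet, 0.075.

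The other claudins (22 of 22) had 12 higher, 6 lower and 4 equal in mean and a median of 0.0097. Cldn4 was at 8.17, 8.27 and 8.13 on induced arrays and 8.10 and 8.13 on uninduced arrays. Its lowest induced and highest uninduced values were the same, and the change was 0.075 with a standard error of 0.051. Cldn7, whose product associates with EpCAM, had 0.052, and Cldn12 had the same value throughout. In 3 claudin genes, Cldn2, Cldn11 and Cldn18, picked for their values, all induced arrays lay above both uninduced arrays, as in 1.65% of all genes, with changes of 0.21, 0.11 and 0.10. In 0 of the 22 did all lie below, against 3.08% of all genes, and with so few genes nothing is read from these counts. Cldn2 was at 3.33, 3.29 and 3.29 on induced arrays and at 2.96 and 3.23 on uninduced arrays. These levels are below the median over genes of 5.06, and its uninduced values lay farther apart than its change.

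Other adherens junction genes (12 of 12) had 8 higher, 3 lower and 1 equal in mean and a median of 0.017. The catenin genes that anchor E-cadherin had changes of -0.012 for Ctnna1, -0.021 for Ctnnb1 and -0.073 for Ctnnd1. Ctnnb1, the beta-catenin gene, was at 9.23, 9.20 and 9.13 on induced arrays and 9.21 on both uninduced arrays. Desmosome genes (11 of 13) had 1 higher, 5 lower and 5 equal in mean and a median of 0. Pkp2, a plakophilin gene whose product links desmosomal cadherins to desmoplakin, was at 6.57, 6.60 and 6.56 on induced arrays, against 6.79 and 7.05 on uninduced arrays. The groups of Pkp2 did not overlap, and its change of -0.34, with a standard error of 0.09, was the lowest of the 143 list genes and did not pass (limma adjusted p = 0.770). It is the gene lower at an unadjusted p under 0.05. The other desmosome genes named by level were Perp, at -0.16, and Pkp4, at -0.051. The desmosomal cadherin gene Dsg2, picked for its values, was at 5.87 on all induced arrays and at 5.89 and 5.99 on uninduced arrays, a change of -0.072.

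Gap junction connexin genes (15 of 19) had 4 higher, 6 lower and 5 equal in mean and a median of 0. Gja1, the main connexin gene of ES cells, was at 9.03, 9.06 and 8.97 on induced arrays and 8.92 and 8.97 on uninduced arrays, with a change of 0.072. Induced array 3 shared its value with uninduced array 2. Gjc1 and Gjd3 had changes of 0.020 and -0.029. Genes for proteases that cut EpCAM and for related inhibitors (11 of 13) had 7 higher and 4 lower means and a median of 0.014. Psenen, a gamma-secretase subunit gene, had a change of -0.084, the matriptase inhibitor gene Spint2 0.014 and the sheddase gene Adam17 0.00071. Aph1a, another gamma-secretase subunit gene, was picked as the gene higher at an unadjusted p under 0.05, at 0.058 (limma adjusted p = 0.770).

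Transcription factors that repress Cdh1 and other epithelial genes bind the E-box CACCTG. To show where it lies near these genes, the 250 bases before the start were read from RefSeq windows of build GRCm38.p6. Windows were at hand for 5 of the 8 genes, 6 windows in all, with Jam2, Jam3 and Cdh1 having no entry. The motif CACCTG, on either strand (CAGGTG on the strand shown), was the only motif searched. It was found in 4 of the 6 windows, of Epcam, F11r, Cldn6 and Ocln, and in 17.2% of 32851 windows of the same length. A match is a description of the letters and not a binding site. The windows of Epcam (chr17:87635729-87635978, plus strand), F11r (chr1:171437311-171437560, plus strand) and Cldn6 (chr17:23679115-23679364, plus strand) are shown 5′ to 3′ as examples, with the motif in capitals. The Ocln window that holds the motif is not shown.
Epcam: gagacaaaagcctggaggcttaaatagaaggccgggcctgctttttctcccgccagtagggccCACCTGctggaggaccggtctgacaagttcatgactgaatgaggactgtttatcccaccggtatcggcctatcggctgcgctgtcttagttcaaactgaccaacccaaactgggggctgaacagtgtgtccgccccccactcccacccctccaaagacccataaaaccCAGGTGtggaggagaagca
F11r: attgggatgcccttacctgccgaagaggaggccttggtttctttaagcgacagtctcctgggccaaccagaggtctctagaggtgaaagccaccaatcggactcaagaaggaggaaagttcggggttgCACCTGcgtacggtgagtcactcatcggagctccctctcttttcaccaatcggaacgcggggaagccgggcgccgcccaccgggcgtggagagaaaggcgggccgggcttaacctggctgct
Cldn6: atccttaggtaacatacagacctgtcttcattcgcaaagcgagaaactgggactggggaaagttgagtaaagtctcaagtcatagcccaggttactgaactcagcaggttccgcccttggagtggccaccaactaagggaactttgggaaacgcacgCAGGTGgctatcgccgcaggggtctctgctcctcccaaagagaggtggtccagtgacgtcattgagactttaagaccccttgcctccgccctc
The first base of a match lay 187 and 19 bases before the start in Epcam, 122 in F11r and 93 in Cldn6.

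Of the 9 Cdh1 repressor genes, 4 had a higher mean, 4 a lower mean and 1 the same value, and the median change was 0. The 3 with the highest level, Tcf3, Tcf4 and Zeb1, had changes of 0.0041, -0.023 and -0.066. Zeb1 was at 5.62 on all induced arrays and at 5.75 and 5.62 on uninduced arrays, so that only uninduced array 1 stood apart. Snai1 and Zeb2, classic repressors of Cdh1 named for that role, had changes of 0.010 and 0. Regulators that favour epithelial genes (9 of 9) had 4 higher, 3 lower and 2 equal in mean and a median of 0. Klf5, a Kruppel-like factor gene of ES cells and epithelia, had a change of -0.040. Grhl2, a grainyhead-like factor gene, and Esrp1, an epithelial splicing factor gene, had changes of -0.11 and 0.046. For none of these regulators was a change of 1.5-fold or more seen. A decrease of that size was found in only 0.0301% of all genes, so nothing is read from this.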

How the data were processed

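The deposited values are log2 expression levels of 35557 probe sets, made by the authors with RMA per the submitters' processing notes, with version and software not given in the sources used here. The log2 scale was read from the values. RMA equalises arrays, which hides any shift shared by most transcripts.

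Probe sets with 1 gene symbol in the array annotation (21789; 1621 had several and 12147 were not listed) were matched by gene identifier to the RefSeq gene table of GRCm38.p6 (21698 matched, 0 symbols changed). Where a gene had several probe sets, that with the highest mean level was kept, giving 19938 genes, with no filter. Titles gave 3 induced and 2 uninduced arrays. The limma 3.58.1 fit (lmFit, eBayes without trend, R 4.3.3) adjusted p-values over all genes (Benjamini-Hochberg, threshold 0.05). Values were tied between arrays in 18138 of the 19938 genes, and how well the fit handles such ties was not tested. Standard errors are from this fit.

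The members, lists, settings and rules for named genes (the 8 members, Satb1, 3 genes per list by level, genes that passed, and the 5 nearest to Jam2) were chosen with earlier results of these data known. One list symbol, Pals1, was read as Mpp5. Settings tried are given with the results.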

Additional observations from a re-analysis of the deposited data

How the results depend on the processing

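The Jam2 change stayed below 0 in all 14 alternatives. Several of them alter only the variance model or the set of genes, and so return -0.79 unchanged. Groups that do not overlap also keep their sign when 1 array is left out, so the sign is no separate support. The Jam2 change moved by more than the SD within groups to -0.93 (standard error 0.17) with the feeder mean as a covariate. That mean was higher on every induced array, so this fit cannot tell feeder content and induction apart. With single arrays left out the range of the Jam2 change was -0.93 to -0.66. The other 7 genes stayed between -0.11 and 0.14 in 92 values under the alternatives, of which 13 moved by more than that SD. Ocln lay below the median level, and 5 tied genes could not enter the fit of untied genes. Satb1 kept its direction. It passed with limma's prior taken from the genes that had 5 distinct values (adjusted p = 0.0038) and with untied genes alone (0.00053). Its log2 change was 3.35 without uninduced array 1 and 3.75 without uninduced array 2.

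Over all genes, 2 were higher and 1 lower. Both counts became 0 with the feeder covariate, with a second quantile normalization, with median centring and when low genes were dropped. That prior gave 1 higher and 0 lower genes, and untied genes alone gave 1 higher. Leaving out single arrays gave 0 to 1051 higher genes, 0 to 1097 lower genes and 0 to 20 junction list genes. Without 1 uninduced array, the spread comes from the induced arrays alone. The cause of these changes was not tested.

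The labels do not say if the title numbers pair the arrays. Deviations from the group mean had correlations of -0.0063 and 0.0063 between arrays that share a number. These values cannot decide the question. Both use the same uninduced deviations with the sign reversed, and many values are tied. With the number as a replicate block, 0 genes were higher, 0 lower and 0 junction list genes were called, and the Jam2 change was -0.80.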
